A study of Mus musculus with 6 samples.

Results

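Heavy chain variable (V) segments of the mouse antibody locus were described in germinal center (GC) B cells of immunized mice. The members were all rows of the deposited table whose gene name begins with Ighv, which gave 145 of 19680 genes, 110 of them typed as V genes and 35 as V pseudogenes. The data were 6 RNA sequencing libraries of B220+ CD38- FAS+ cells sorted from spleen at day 14 after 100 µg of NP-CGG, a hapten on a carrier protein, was injected intraperitoneally. The 3 cKO libraries came from Senp1flox/flox Cgamma1-Cre mice and the 3 WT libraries from Senp1flox/flox mice without the Cre, all C57BL/6 and 6 to 8 weeks old. Senp1 encodes a protease that removes the modifier SUMO, and its alleles carry loxP sites in both groups. Cgamma1-Cre is inserted at the Ighg1 constant gene of the same heavy chain locus and acts in B cells that transcribe it, so B cells in which it has not acted keep Senp1. No label ties a library to a single animal. The p-values therefore reflect only how far these libraries differ among themselves, which may be technical.

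A heavy chain V region is assembled from 1 V, 1 D and 1 J segment, so a B cell and its progeny transcribe the same V segment at a high level and others little. In C57BL/6 mice the response to the hapten NP is known for antibodies built on the V186.2 segment, Ighv1-72, paired with a lambda light chain. GC B cells then mutate these segments and are selected for binding. Family 1 (J558) is the largest family of the locus, and the carrier protein raises its own antibodies with other segments.

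The sequence of Ighv1-72 is shown because it bears on how its reads could be assigned. The line holds the last 294 of the 396 bases of its transcript in GENCODE M21 (GRCm38, minus strand), the part that encodes the mature V region and lies within the last exon, with codon 33 in capitals. That codon is the site of the affinity-raising mutation known from the NP response. Its nearest relative, Ighv1-62-3, follows with the bases that differ from Ighv1-72 in capitals.
Ighv1-72: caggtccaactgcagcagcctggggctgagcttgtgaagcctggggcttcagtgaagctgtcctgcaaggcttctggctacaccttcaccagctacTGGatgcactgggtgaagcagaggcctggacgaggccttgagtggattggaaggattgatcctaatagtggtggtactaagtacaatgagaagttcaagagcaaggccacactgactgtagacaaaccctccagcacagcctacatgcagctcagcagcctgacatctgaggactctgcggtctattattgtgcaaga
Ighv1-62-3: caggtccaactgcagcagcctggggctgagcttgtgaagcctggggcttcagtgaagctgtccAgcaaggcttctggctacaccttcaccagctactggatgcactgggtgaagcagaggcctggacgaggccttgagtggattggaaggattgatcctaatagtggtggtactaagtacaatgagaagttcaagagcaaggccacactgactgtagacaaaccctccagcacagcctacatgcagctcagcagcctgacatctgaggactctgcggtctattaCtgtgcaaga

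Over these 294 bases the pair differed at 2 positions, T64A and T285C, written as the Ighv1-72 base, the position counted from the first base shown, and the Ighv1-62-3 base. Of the 50-base stretches of the Ighv1-72 transcript, 7.49% occurred in no other annotated Ighv transcript, against a median of 80.3% over the 145 members. Read length and the counting of reads with several matches are not given in the sources used, so how many Ighv1-72 reads were left uncounted was not tested. Ighv1-62-3 itself held 0 to 5 reads per library. Ighv1-72 (ENSMUSG00000096074) lies at chr12:115757984-115758461 and Ighv1-62-3 (ENSMUSG00000096767) at chr12:115460999-115461485.

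Codons 26 to 40 lie around the first complementarity-determining region, which contacts antigen. They are given for Ighv1-72 and some of the leading segments, with capitals at bases that differ from Ighv1-72.
Ighv1-72: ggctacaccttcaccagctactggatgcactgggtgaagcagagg
Ighv1-64: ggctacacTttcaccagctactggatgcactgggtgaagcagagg
Ighv1-55: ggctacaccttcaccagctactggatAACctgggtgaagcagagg
Ighv1-54: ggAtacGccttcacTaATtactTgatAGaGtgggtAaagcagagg
Ighv9-3: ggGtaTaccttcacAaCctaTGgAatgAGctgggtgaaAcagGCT

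Ighv1-64 had 1 difference in this window, Ighv1-55 had 3, Ighv1-54 had 10 and Ighv9-3 had 13. Over the aligned transcripts the identity to Ighv1-72 was 95.2% for Ighv1-64, 93.9% for Ighv1-55, 84.4% for Ighv1-54 and 66.5% for Ighv9-3. Ighv1-53, not among the lines above, matched Ighv1-72 at every base of the window and was 95.4% identical over the transcript. All 145 members lie on chromosome 12 on the minus strand, from 113572927 to 116010093.

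Gene-assigned reads numbered 9657005, 3019152 and 3082897 in cKO replicates 1 to 3, against 10339054, 5160902 and 6528052 in WT replicates 1 to 3. Senp1 was at 399 ± 26.3 normalized counts in cKO and 891 ± 23.7 in WT (SD, n = 3 each), with no overlap between the groups. All 8 GC B cell markers, among them Bcl6 and S1pr2, had reads in every library, and their summed level was 7461 to 11923 normalized counts in cKO and 12497 to 13714 in WT, with 0 of 8 higher on average in cKO. Mitochondrial genes took 3.66%, 12.3% and 19.1% of reads in cKO and 2.71%, 7.92% and 9.83% in WT. Replicate 1 of both groups lay at one end of the first principal component (33.2% of the variance), at -49.1 for cKO and -54.4 for WT, with the other libraries at -10.1 to 56.2.

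Ighv1-72, the canonical NP segment, took a smaller mean share of the Ighv reads in cKO than in WT, but the libraries overlapped and the difference did not pass the test. It took 1.47% (95% Wilson interval 1.28 to 1.70), 3.35% (2.99 to 3.75) and 0.758% (0.467 to 1.23) of the Ighv reads in cKO replicates 1 to 3. In WT replicates 1 to 3 it took 2.64% (2.43 to 2.87), 3.03% (2.64 to 3.47) and 4.04% (3.70 to 4.41). Replicates 1 and 3 of cKO were thus below every WT library, and cKO replicate 2 stood among the WT values. The intervals cover counting error only, since reads carry no molecular identifiers, and cKO replicate 3 rests on 16 Ighv1-72 reads.

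The mean share was 1.86% ± 1.34 in cKO and 3.24% ± 0.721 in WT (SD, n = 3 each), a difference of -1.38 percentage points. The exact permutation test, two-sided, gave p = 0.3, where 0.1 is the smallest that 3 against 3 can give. Without cKO replicate 2 the difference was -2.12 points (exact p of 0.1, again the smallest possible) and without cKO replicate 3 it was -0.825. Adding Ighv1-62-3, with 0 to 5 reads per library, gave -1.39 points. That sum could move little, and it holds no read that was left out of both rows. The limma fit over all genes put Ighv1-72 at -1.24 on the log2 scale, cKO over WT, with an adjusted p of 0.928. Its 95% confidence interval reached from -3.14 to 0.65 and so takes in no change as well as a large one. The fold change was -2.32 without cKO replicate 2 and -0.32 without cKO replicate 3, and on recovered reads it was -0.42 by edgeR and -0.41 by DESeq2. As normalized counts it measured 98.2, 543 and 32.7 in cKO and 280.1, 213 and 401 in WT.

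By rank among the 145 members, Ighv1-72 was 16th, 9th and 32nd in the cKO libraries and 8th, 8th and 3rd in the WT libraries. Averaged over the 6 libraries it was the 9th most abundant segment, and the 11th once values were divided by transcript length. The lambda segment Iglv1, its usual partner in NP antibodies, took 11.6%, 10.3% and 8.59% of light chain V reads in cKO and 15.5%, 10.8% and 8.06% in WT, and the groups overlapped. Ighg1, the constant gene of the IgG1 class, was at 36174 ± 2830 normalized counts in cKO and 36286 ± 4046 in WT.

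**Figure D1:**
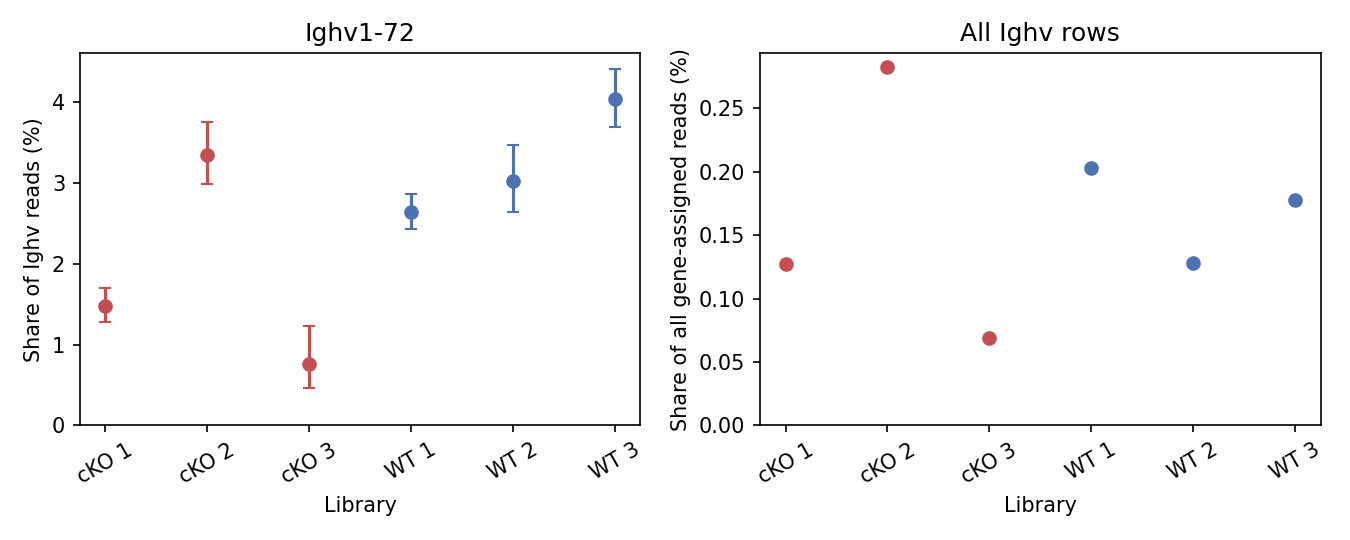
Left, share of Ighv reads (%) assigned to Ighv1-72 in each library, with 95% Wilson intervals as bars. Right, all Ighv rows as a share of gene-assigned reads (%), without error bars. In red 3 cKO libraries stand left of 3 WT libraries in blue, and cKO 2 lies among or above the WT values in both panels while cKO 3 is lowest.

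Heavy chain V transcripts as a whole made up a similar mean share of all gene-assigned reads in both groups, but the cKO libraries were far apart. The Ighv rows took 0.127%, 0.283% and 0.0685% of reads in cKO and 0.203%, 0.128% and 0.178% in WT. The lowest and the highest of the 6 libraries were both cKO. The means were 0.160% ± 0.111 in cKO and 0.170% ± 0.0380 in WT (SD, n = 3 each; exact permutation p of 0.9). The difference of -0.010 points changed sign without cKO replicate 1, without cKO replicate 3 and without WT replicate 1. Fewer cells of a type and less RNA per cell cannot be told apart in such bulk libraries.

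In normalized counts the Ighv sum was 6656, 16215 and 4314 in cKO and 10597, 7036 and 9922 in WT. Plasma cells carry very high immunoglobulin mRNA, and the summed level of 10 plasma cell markers moved with the Ighv sum at its highest. That marker sum was 10622, 18893 and 9557 normalized counts in cKO and 12384, 10813 and 15362 in WT, with 7 of the 10 markers higher on average in cKO. Jchain, the joining chain of secreted antibody, supplied most of it. Sdc1 was at 152 in cKO replicate 2 and at most 83.9 in the other libraries. Jchain, Irf4, Tnfrsf17 and Cd28 also had their highest value in cKO replicate 2. Prdm1, Xbp1, Slamf7, Mzb1 and Ly6c1 did not, and Prdm1 was at 64.5 there against 102 and 107 in WT replicates 1 and 3. Of the 10 only Ly6c1 had 0 reads in a library. Naive or memory B cell markers summed to 4064, 9596 and 5787 in cKO and 2408, 4403 and 5248 in WT (8 of 8 higher on average in cKO). T cell markers summed to 729, 1524 and 505 in cKO and 662, 675 and 596 in WT (8 of 8 higher on average in cKO). All 8 had their highest value in cKO replicate 2. Lck alone was at 563, 691 and 470 in cKO and 484, 574 and 498 in WT. Cd3d, Cd3g and Cd8a had 0 reads in cKO replicate 3. B1 or marginal zone markers summed to 499 to 765 in cKO and 289 to 492 in WT (6 of 6 higher on average), and myeloid markers to 298 to 446 in cKO and 114 to 298 in WT (8 of 8), with Mertk and C1qb at 0 reads in cKO replicate 3. As a percent of the other nuclear genes, the Ighv total averaged 0.185% in cKO and 0.186% in WT. As a percent of the sum of 4 B cell genes it averaged 34.8% in cKO and 37.5% in WT (exact permutation p of 0.9). Beyond these scalings of the total, the part of these cells, and of the mitochondrial share, in the V segment values was not tested.

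A single segment, Ighv9-3 (ENSMUSG00000096459, chr12:114140692-114141122), led in all 6 libraries. Its normalized counts were 941, 2247 and 623 in cKO and 1119, 1341 and 1112 in WT. It took 14.1%, 13.9% and 14.4% of the Ighv reads in cKO and 10.6%, 19.1% and 11.2% in WT. The cKO shares lay close together and inside the WT range, so the groups did not separate. Its mean share was 14.1% ± 0.291 in cKO and 13.6% ± 4.73 in WT (SD, n = 3 each), a difference of 0.54 points (exact permutation p of 1). That sign turned without WT replicate 1 (-0.990 points) and without WT replicate 3 (-0.663). The other 3 members of family 9, Ighv9-1, Ighv9-2 and Ighv9-4, took 0.0431% to 0.994% each, although Ighv9-3 is 94.3% identical to Ighv9-2. Of its 50-base stretches, 76.8% were found in no other Ighv transcript.

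Behind Ighv9-3 the leading segments differed from library to library.
In cKO replicate 1 the next places were held by Ighv1-54 (6.13%) and Ighv1-64 (4.28%). In cKO replicate 2 they were Ighv1-81 (5.93%) and Ighv1-18 (5.29%), and in cKO replicate 3 Ighv1-54 (7.62%) and Ighv1-26 (4.78%). In WT they were Ighv3-6 (6.13%) and Ighv5-4 (5.34%) in replicate 1, Ighv1-55 (7.87%) and Ighv1-9 (5.76%) in replicate 2, and Ighv3-6 (5.13%) and Ighv1-72 (4.04%) in replicate 3. Only Ighv9-3 was among the 10 most abundant in every library.

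There were 29 segments with a mean share of at least 1%, which together took 71.2% of the Ighv reads, while 55 members had a mean share under 0.1%. Between the lowest and the highest of the 6 libraries, the share of these 29 segments differed by a median of 5.11-fold. Ighv9-3 differed least (1.81-fold), followed by Ighv1-64 (2.22-fold) and Ighv1-26 (2.31-fold). Ighv2-9 differed most (54.0-fold): it took 0.758%, 0.117% and 3.27% in cKO and 1.38%, 0.0605% and 2.82% in WT, so its extremes occurred within both genotypes. Family 14's leading segment Ighv14-3 took 1.20%, 1.18% and 0.473% in cKO and 2.27%, 0.106% and 1.51% in WT.

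This spread was larger than that of other genes at the same level. Among members with a mean of 100 to 1000 normalized counts (24 segments), the median standard deviation within a genotype was 1.39 on the log2 scale. The same measure was 0.93 for 49 kappa light chain V segments and 0.22 for 5895 genes outside the immunoglobulin loci. At means of 10 to 100 the values were 1.45 for 63 Ighv segments, 1.24 for 36 kappa segments and 0.41 for 3582 other genes. These are descriptions, since segments of a library share its cells and their total.

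**Figure D2:**
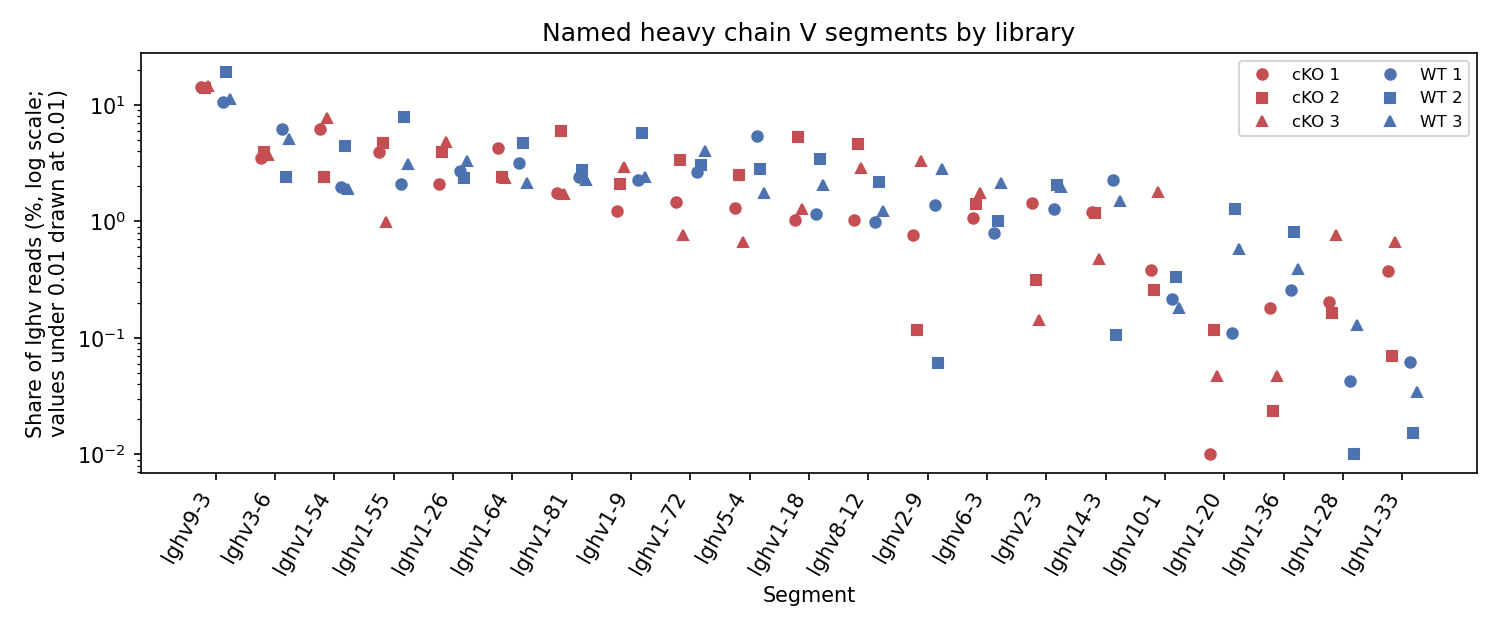
Share of Ighv reads (%, log scale, values under 0.01 drawn at 0.01) for 21 named segments, ordered by mean share. Red points are the 3 cKO libraries and blue points, to their right, the 3 WT libraries. Ighv9-3 is highest in all 6 libraries, and Ighv2-9 and Ighv14-3 range widely within a genotype.

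The number of segments in use differed between the genotypes by less than the spread of the libraries. The inverse Simpson number, the count of equally used segments that would give the same concentration, was 26.5, 22.8 and 23.5 in cKO and 32.8, 16.7 and 33.4 in WT. WT replicate 2, in which Ighv9-3 took the largest share, was the most concentrated library, and the other WT libraries were the least. The means were 24.3 ± 2.0 in cKO and 27.6 ± 9.51 in WT (SD, n = 3 each; exact permutation p of 0.5). The difference of -3.36 was -8.84 without WT replicate 2, -0.783 without WT replicate 1 and -0.449 without WT replicate 3.

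The 10 leading segments of each library together took 45.2%, 54.0% and 49.6% of Ighv reads in cKO and 42.4%, 57.0% and 39.4% in WT. Segments with at least 1 read numbered 122, 112 and 94 in cKO and 137, 100 and 114 in WT. This count depends on depth, since the Ighv reads numbered 12275, 8543 and 2112 in cKO and 20962, 6609 and 11614 in WT. Thinned to 2112 reads each, the expected numbers were 104.0, 94.9 and 94.0 in cKO and 106.9, 85.2 and 99.7 in WT.

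Profiles overlapped about as much between genotypes as within them. The overlap of 2 libraries, the sum over segments of the smaller of their shares, averaged 64.7% over the 3 cKO pairs and 66.1% over the 3 WT pairs. Over the 9 pairs of a cKO with a WT library it averaged 65.3% (55.0% to 71.8%). Same-numbered cKO and WT libraries averaged 67.2%. The highest overlap was between WT replicates 1 and 3 (73.7%) and the lowest between cKO replicate 3 and WT replicate 2 (55.0%).

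**Figure D3:**
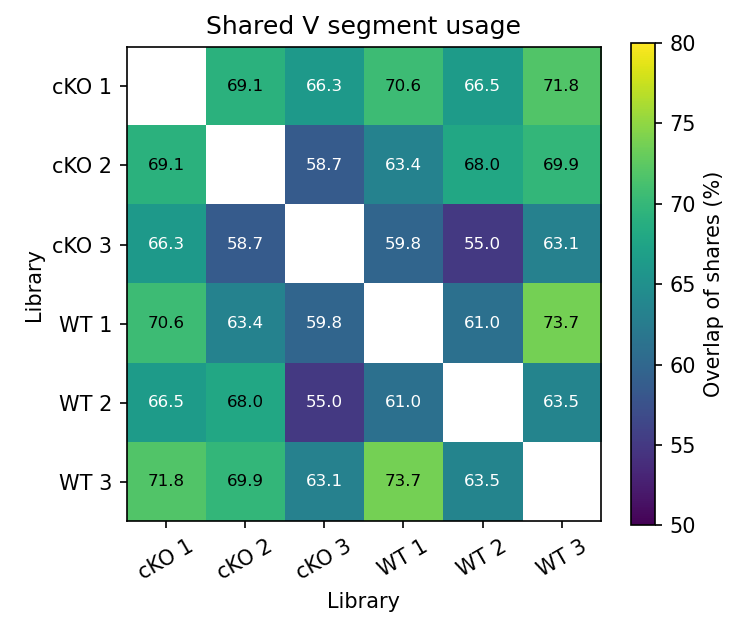
Overlap of V segment shares (%) for each pair of the 6 libraries, from 55.0% for cKO 3 with WT 2 to 73.7% for WT 1 with WT 3. Pairs of the same genotype do not form a block of higher values.

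By family, about 50 in 100 Ighv reads came from family 1, which also holds 80 of the 145 members. Its share was 51.1%, 51.7% and 46.7% in cKO and 47.0%, 56.6% and 48.7% in WT, with means of 49.8% ± 2.74 in cKO and 50.8% ± 5.11 in WT (SD, n = 3 each; exact permutation p of 0.8). The difference of -0.958 points changed sign without cKO replicate 3 (0.614) and without WT replicate 2 (1.95).

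Family 9, nearly all Ighv9-3, came next at 15.0% ± 0.737 in cKO and 14.4% ± 4.29 in WT. Family 5, which lies near the D segments, took 8.98% ± 4.46 in cKO and 10.5% ± 3.30 in WT (SD, n = 3 each). Family 2, also near the D segments, took 5.03%, 3.45% and 6.58% in cKO and 5.41%, 7.58% and 10.5% in WT. Its groups overlapped, with cKO replicate 3 above WT replicate 1, and its p was the smallest of the 15 families (exact permutation p of 0.2, 0.75 after Benjamini-Hochberg adjustment over the 15).

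Family 8 took 2.39%, 5.42% and 8.19% in cKO and 2.78%, 2.80% and 2.39% in WT. The standard deviation was 2.90 points in cKO and 0.233 points in WT (exact permutation p of 0.3 for the means). Ighv8-12, its most abundant member by mean share, took 1.03%, 4.61% and 2.84% in cKO and 0.988%, 2.18% and 1.23% in WT. In cKO replicate 3 Ighv8-8 took a larger share of 4.40%. Family 6, led by Ighv6-3, took 3.16% ± 1.55 in cKO and 2.08% ± 1.11 in WT, and family 3, led by Ighv3-6, took 5.93% ± 0.698 in cKO and 6.44% ± 3.38 in WT. Family 10, led by Ighv10-1, took 0.823%, 0.644% and 3.03% in cKO and 0.921%, 0.393% and 0.293% in WT, so its high value stood in cKO replicate 3. Exact permutation p-values adjusted over the families, for the other families, were 0.75 to 1.

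**Figure D4:**
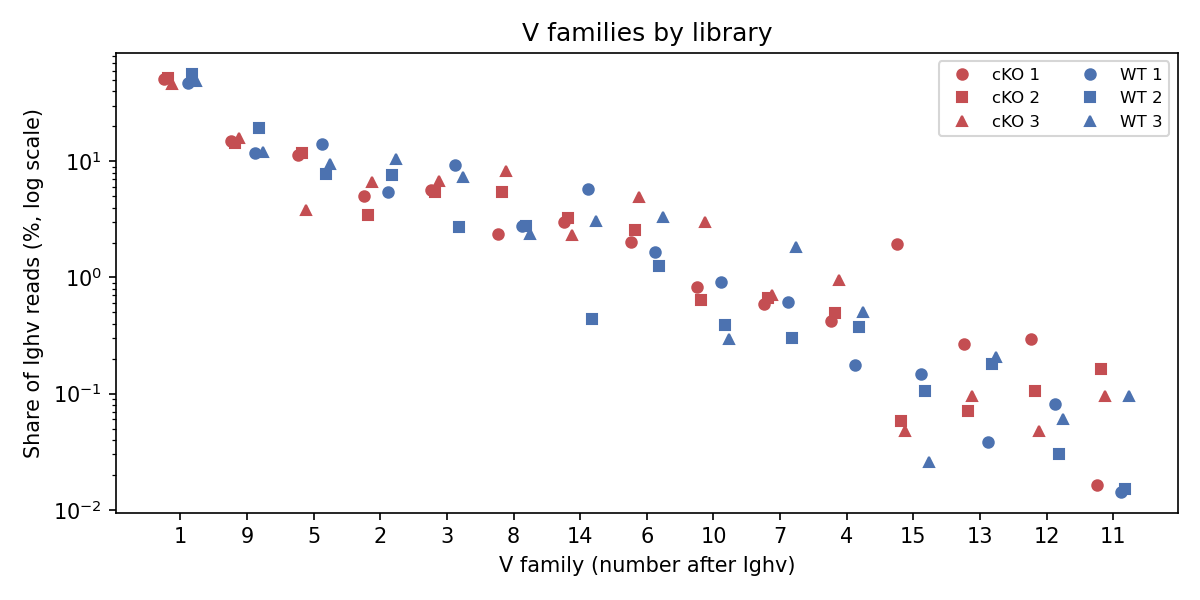
Share of Ighv reads (%, log scale) by V family, ordered by mean share, with 3 cKO libraries (red) left of 3 WT libraries (blue) in each family. Family 1 takes 46.7% to 56.6% in every library, and the groups overlap in all 15 families.

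Along the locus, the 72 members nearer to the D segments took 55.5%, 55.6% and 55.1% of Ighv reads in cKO and 58.2%, 52.9% and 60.7% in WT, the remaining 73 members the rest. The means were 55.4% ± 0.237 in cKO and 57.3% ± 3.97 in WT. The pseudogene rows took 3.48%, 0.866% and 5.16% in cKO and 3.02%, 0.439% and 1.72% in WT, so the low values stood in replicate 2 of both groups.

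**Figure D5:**
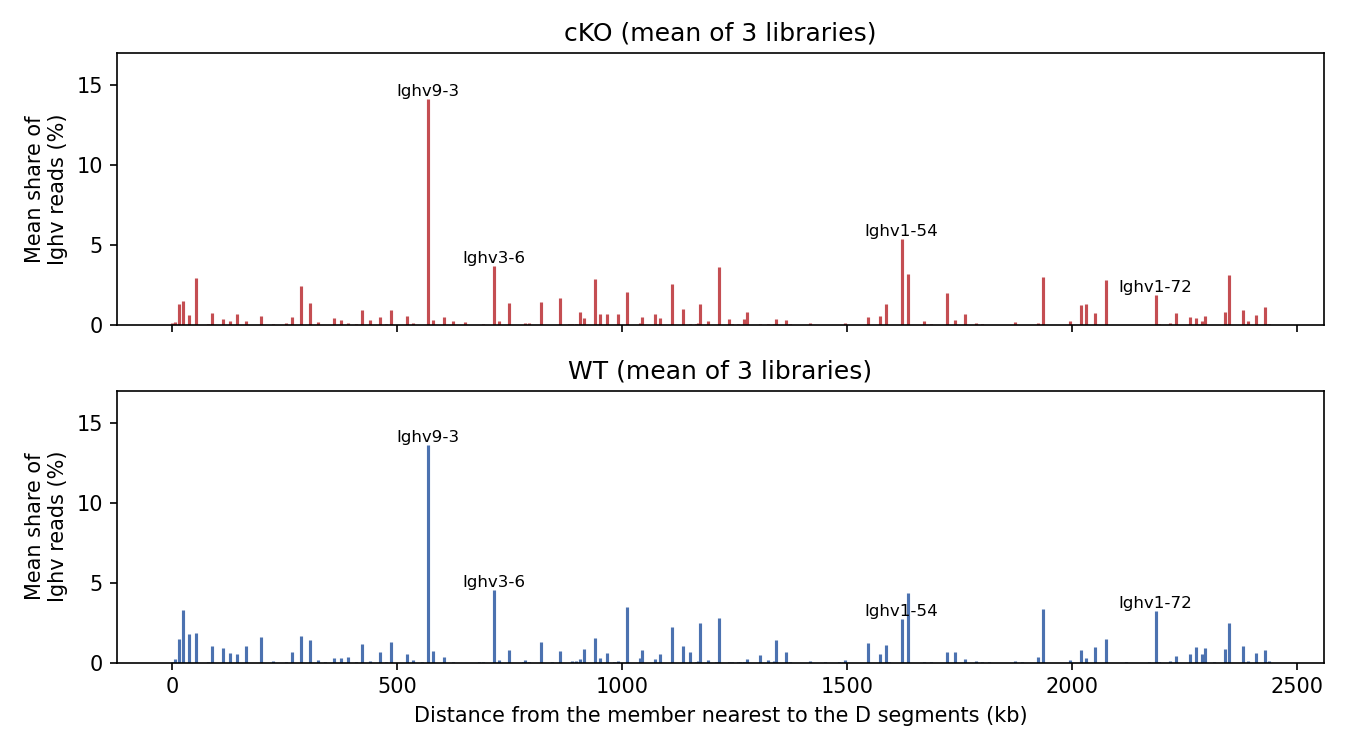
Mean share of Ighv reads (%) of each member against its distance (kb) from the member nearest to the D segments, cKO above and WT below, means of 3 libraries without error bars. Ighv9-3 is the tallest line in both panels, and Ighv1-72 lies toward the far end of the locus.

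No single segment passed the test between genotypes. Of the 145 members, 123 had a mean of at least 1 normalized count and were tested (104 V genes and 19 pseudogenes), within a fit over 14678 genes. By limma 0 were called at an adjusted p under 0.05, where the share called over all genes was 0.0%. Senp1, the targeted gene, was itself not called by limma (log2 fold change -1.16, limma adjusted p = 0.111). Its adjusted p on recovered reads was 0.145 by edgeR and 2.8e-09 by DESeq2. At an unadjusted p under 0.05, limma gave 5 members higher in cKO and 4 lower, where 2.98% of all genes were higher and 2.17% lower (5.15% in either direction). By edgeR and by DESeq2 on recovered reads 0 members were called, with 0.0% and 0.147% of all genes called. With the replicate block and with a term for replicate 1, limma also called 0 members, where 0.00681% and 0.0204% of all genes were called. Without cKO replicate 2, limma gave 20 of 119 tested members lower at an unadjusted p under 0.05 (16.8%), where 2.65% of all genes were lower in that fit. Without WT replicate 2 the count was 16 of 123 (13.0%), where 1.04% of all genes were lower. Leaving out any other single library gave 4 to 6 members lower, where 217 to 637 of all genes were lower. Without cKO replicate 2, the library with the highest Ighv total, that total averaged 0.0978% of reads in cKO and 0.170% in WT. Members of a library share its Ighv total, so these counts are not of separate changes. The authors' deposited table also lists 0 members at an adjusted p under 0.05, with no adjusted p for 49.

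The median log2 fold change of the tested members was -0.15, against -0.0019 over all genes, and it turned positive without cKO replicate 3 (0.31), without WT replicate 1 (0.12), without WT replicate 3 (0.060) and with replicates 2 and 3 alone (0.080). Of the tested members, 51 had a higher and 72 a lower fitted value in cKO, against 7303 and 7375 of all genes. The members share the Ighv total of each library, so this split is a description. The groups did not overlap for 4 members higher in cKO and 3 lower (5.69%), while this held for 11.6% of all genes (6.28% higher and 5.28% lower).

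The 6 segments with the smallest unadjusted p, 3 in each direction, were low to moderate in level. Ighv1-36, a family 1 segment, measured 11.9, 3.80 and 2.04 normalized counts in cKO and 27.3, 56.4 and 38.4 in WT. The groups did not overlap, but cKO replicates 2 and 3 rest on 2 and 1 reads. Its log2 fold change was -2.80 ± 0.59 (SE; limma adjusted p = 0.813), and it took 0.0234% to 0.179% of Ighv reads in cKO and 0.258% to 0.802% in WT.

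Ighv1-20 measured 0.542, 19.0 and 2.04 normalized counts in cKO and 11.6, 90.5 and 57.2 in WT (log2 fold change -3.16, limma adjusted p = 0.915), and its groups overlapped. Ighv2-3, of family 2, measured 96.0, 51.2 and 6.13 in cKO and 134, 145 and 196 in WT (log2 fold change -2.25, limma adjusted p = 0.915). Without cKO replicate 3, which rests on 3 reads of this segment, the fold change was -1.14. Every cKO library was below every WT library for Ighv2-3 in normalized counts, though not as a share, where cKO replicate 1 (1.44%) exceeded WT replicate 1 (1.27%).

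Ighv1-54, among the 3 most abundant segments by mean share, measured 408, 385 and 329 normalized counts in cKO and 207, 309 and 189 in WT. Every cKO library was above every WT library, with a log2 fold change of 0.70 ± 0.21 (SE; limma adjusted p = 0.915). As a share it took 6.13%, 2.38% and 7.62% in cKO and 1.95%, 4.39% and 1.90% in WT, and there the groups overlapped. The other 2 were pseudogenes of family 1: Ighv1-33 at 24.9, 11.4 and 28.6 normalized counts in cKO and 6.57, 1.06 and 3.42 in WT, and Ighv1-28 at 13.6, 26.6 and 32.7 in cKO and 4.55, 0 and 12.8 in WT. Their groups did not overlap, at limma adjusted p-values of 0.915 for both. They rest on 6 to 46 and 14 to 25 reads per cKO library and on 1 to 13 and 0 to 15 per WT library, and 0 reads in WT replicate 2 allow a share of up to 0.0454% at a floor of 3 reads.

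Genes that act on the V segments were read from the same fit. Of 15 regulators of immunoglobulin gene transcription 0 passed in either direction (median log2 fold change -0.078). Pou2f1, a factor that binds the octamer motif of V promoters, measured 382, 359 and 300.3 normalized counts in cKO and 506, 517 and 411 in WT (log2 fold change -0.46, limma adjusted p = 0.915). Its lymphoid relative Pou2f2 had means of 1791 ± 366 in cKO and 1364 ± 67.4 in WT. Ikzf1, a lymphoid zinc finger factor, had means of 3751 ± 506 in cKO and 4813 ± 272 in WT (SD, n = 3 each).

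Of 15 genes of the B cell receptor complex and its proximal signalling 0 passed (median 0.054). Cr2, a complement receptor, was at 2222 ± 355 normalized counts in cKO and 1565 ± 529 in WT, and Cd81, a tetraspanin, at 562 ± 42.8 in cKO and 682 ± 40.5 in WT (SD, n = 3 each).

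Of 12 genes of V region hypermutation 0 passed by limma (median -0.15). Pcna, the sliding clamp of replication, was at 2365 ± 394 normalized counts in cKO and 2833 ± 374 in WT, and Mbd4, a DNA glycosylase, at 726 ± 297 in cKO and 906 ± 246 in WT (SD, n = 3 each). V(D)J recombination, listed with 3 genes, is the step that assembles these segments in B cell precursors. Rag1 had at most 6 reads and Dntt at most 3 in any library. No row of the deposited table is named Rag2.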

How the data were processed

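The authors deposited 1 table with a signal per gene and library, never negative, which is a gene count divided by a size factor of the library. The table also holds the authors' log2 fold change, a score (the Wald statistic, with the standard error) and p-values, per the file headers. DESeq2, HTSeq, SAMtools, HISAT, HISAT2 and TopHat2 stand without version or role in the submitters' processing notes, beside mm10. Annotation release, strand setting and the handling of reads matching several segments are not given in the sources used. All values were whole multiples of the smallest value of their column (100% within 0.01 read), which gave read counts. Shares do not depend on the size factor.

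The members and lists were chosen with earlier results of these data known. Shares, totals, diversity and families were compared with exact two-sided permutation tests. The planned edgeR test on counts was replaced, as planned for normalized values, by limma 3.58.1 (R 4.3.3) with a trend on log2(value + 1), genes with a mean of at least 1, genotype alone and Benjamini-Hochberg adjustment over all genes. The added 1 makes fold changes of low values smaller. The fit averages logs, so a library with few reads of a gene weighs as much as the others. Its fold changes can thus be larger or smaller than those of DESeq2. For Ighv1-72 limma gave -1.24 and DESeq2 -0.41, and for Ighv1-33 they gave 2.37 and 2.47. Alternatives used edgeR 4.0.16 and DESeq2 1.42.0 on recovered reads. The fit was tested on simulated data. Positions and sequences came from GENCODE M21 (GRCm38), where all 145 identifiers were found. Between segments, shares are of reads, and length-scaled values are named as such.

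Named segments were Ighv1-72, the 10 with the largest mean share, the 3 leading in each library, the leading one of each family with at least 1% and the 3 with the smallest p per direction. Others were chosen after their values were seen, namely Ighv1-62-3, Ighv9-1, Ighv9-2, Ighv9-4, Ighv8-8, Ighv15-2, Ighv11-2 and Ighv12-3. In other lists the 3 smallest p-values decided which genes were named, and some of these genes are not reported here. The genotypes share replicate numbers, but the deviations of same-numbered libraries from their group means correlated at 0.49, 0.055 and 0.20, so the numbers were not taken to pair the libraries.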

Additional observations from a re-analysis of the deposited data

How the results depend on the processing

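The Ighv1-72 share was lower in cKO under all 13 alternatives (-2.12 to -0.825 points with single libraries left out). The inverse Simpson number was lower under all 11 (-8.84 to -0.449). The replicate block cannot change either difference and repeated the main values (-1.38 points and -3.36). Adding the nearest relative of Ighv1-72 to its share could move little (-1.39 points). The alternatives also share libraries, so these counts are not separate tests. Leaving out single libraries moved the difference in the Ighv total over -0.0718 to 0.0355 points, in the top segment's share over -0.990 to 3.26, in the family 1 share over -2.84 to 1.95, and in the median log2 fold change of the tested members over -0.66 to 0.31. With replicates 2 and 3 alone, added after the data were seen, the total differed by 0.0227 points, the top share by -0.987 and the median by 0.080. The cause was not tested. With the replicate block, limma called 1 gene over all genes and 0 members, and the Ighv1-72 difference had an exact sign-flip p of 0.5, where 0.25 is the smallest possible. DESeq2 called 20 genes and the term for replicate 1, added after the data were seen, 3, with 0 members in each. At an unadjusted p under 0.05 the members called were 5 higher and 4 lower, and 3 to 10 and 3 to 20 over 17 alternatives, while all genes ranged over 192 to 726 higher and 153 to 664 lower. Over all genes cKO replicate 2 did not correlate best with its own number (0.055, against 0.17 with WT replicate 3), and over the Ighv rows cKO replicate 3 did not (0.016, against 0.28 with WT replicate 1). cKO replicate 3, with 2112 Ighv reads, limits what can be seen of segments under a share of 0.142%, a floor of 3 reads.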

Other observations

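Some segments were abundant in a single library, chosen here after their values were seen. Ighv15-2, the only member of family 15, took 1.96%, 0.0585% and 0.0473% of Ighv reads in cKO and 0.148%, 0.106% and 0.0258% in WT, and 240 of its reads were in cKO replicate 1. Ighv8-8 took 0.888%, 0.620% and 4.40% in cKO and 0.954%, 0.560% and 0.508% in WT. Both values stood in 1 cKO library each, so they say nothing of the genotype. Segments known from B1 cells were rare: Ighv11-2 had 1, 14 and 0 reads in cKO and 1, 1 and 7 in WT, and Ighv12-3 had 36, 5 and 1 in cKO and 9, 2 and 7 in WT.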
